A study of Mus musculus with 25 samples.

Results

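The postsynaptic density is the protein-dense layer under the membrane of an excitatory synapse, where glutamate receptors are held in place by stacked scaffold proteins. MAGUK proteins of the Dlg family lie nearest to the membrane and bind receptors and ion channels through PDZ domains, Dlgap proteins (also called GKAP or SAPAP) bind to the Dlg proteins, and Shank proteins bind to the Dlgap proteins and reach towards Homer and the actin cytoskeleton. In the hippocampus these scaffolds are known for their part in receptor trafficking and synaptic plasticity, and antibodies to PSD95, the product of Dlg4, are a common stain for excitatory postsynaptic sites.

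The 9 genes described here are Dlg1, Dlg2, Dlg3, Dlg4, Dlgap1, Dlgap2, Shank1, Shank2 and Shank3. They form a list of names with no threshold on measured values, drawn up with earlier results of these data known, and all 9 are among the 24411 genes of each of the 3 tables. The libraries were made from NeuN-positive neuronal nuclei sorted from the hippocampus of male mice, with 25 libraries in all. In the aging experiment, wild-type mice of 3 months (young, 3 libraries) were compared with mice of 18 months (aged, 2 libraries). In the overexpression (OE) experiment, young mice had received virus encoding either GFP (control, 5 libraries) or Ftl1 (labelled Ftl1 OE, 7 libraries) under the neuron-specific synapsin-1 promoter. In the knockdown (KD) experiment, aged mice had received virus with an shRNA against luciferase (control, 4 libraries) or against Ftl1 (labelled Ftl1 KD, 4 libraries). Ftl1 encodes ferritin light chain, a subunit of the iron store ferritin. The share of sorted nuclei that carried the virus was not measured here. All values are from nuclear RNA, so neither synaptic mRNA nor protein was measured. Fewer cells of a type and less RNA per cell cannot be told apart in these bulk libraries.

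Depth, here the reads assigned to genes as recovered from the normalized counts, was 7969282 to 9537872 per library in aging. It was 9943996 to 17034325 in OE and 48902 to 358560 in KD. The number of reads sequenced is not known from these values. The targeted gene went against its labels: normalized counts of Ftl1 lay between 4580 and 28310 in OE controls against 4737 to 7663 in libraries labelled Ftl1 OE, and between 24.2 and 56.2 in KD controls against 106 to 139.6 in libraries labelled Ftl1 KD. Summed counts of 7 neuronal markers ranged from 26683 to 36616 in the aging and from 46089 to 71597 in the OE libraries. Astrocyte markers (6 genes) summed to between 3101 and 5138 in the aging libraries. In OE they summed to between 5489 and 24367 in controls and between 8708 and 38296 in libraries labelled Ftl1 OE, with 0 called. Oligodendrocyte markers (6 genes, among them Mbp) summed to between 2914 and 6565 in the aging and between 22584 and 47563 in the OE libraries, and in OE 6 microglial markers summed to between 1689 and 4684 in controls and between 729 and 2010 in libraries labelled Ftl1 OE, with 0 called and 4 at an unadjusted p of 0.05 or less. Of 3 endothelial markers (Cldn5, Flt1 and Pecam1), Pecam1 was at 0 in all aging libraries. The 3 together summed to between 0 and 36.0 in young and between 0 and 76.1 in aged libraries. In OE they summed to between 0 and 261 in controls and between 1.77 and 143 in libraries labelled Ftl1 OE. The part of other cell types in the values that follow was not tested.

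With the deposited normalized counts on a log2 scale (log2 of the count + 1), limma called 0 of the 9 scaffold genes in each of the 3 experiments at a Benjamini-Hochberg adjusted p of 0.05 or less. In aging and OE all 9 genes were tested, and in KD only Dlg2 and Dlgap1 passed the required mean normalized count of 10. Over all genes tested, limma called 0% of 13712 genes in aging, 0% of 14099 in OE and 24.2% of 1460 in KD. edgeR and DESeq2 on the recovered reads also called 0 of the 9 genes in each experiment. DESeq2 gave no adjusted p for Dlg4, Shank2 and Shank3 in OE, so these could not be called by it. In KD it gave none for Dlg1, Dlg3, Dlg4, Shank1, Shank2 and Shank3, in a fit over every gene with a read. Over all genes tested, DESeq2 called 138 in aging and 101 in OE and edgeR 0 in both. In KD, DESeq2 called 348 and edgeR 420 of the 1460 genes, which held only Dlg2 and Dlgap1 of the members. At an unadjusted p of 0.05 or less, limma passed 1 member in aging (Shank3) beside 7.94% of all genes tested. It passed 0 in OE beside 7.26%. In KD, in a fit over every gene with a read, it passed 3 (Dlgap2, Shank2 and Shank3) beside 13.3% of the genes of that fit. All 3 were lower, and 8.13% of the genes of that fit passed and were lower.

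**Figure D1:**
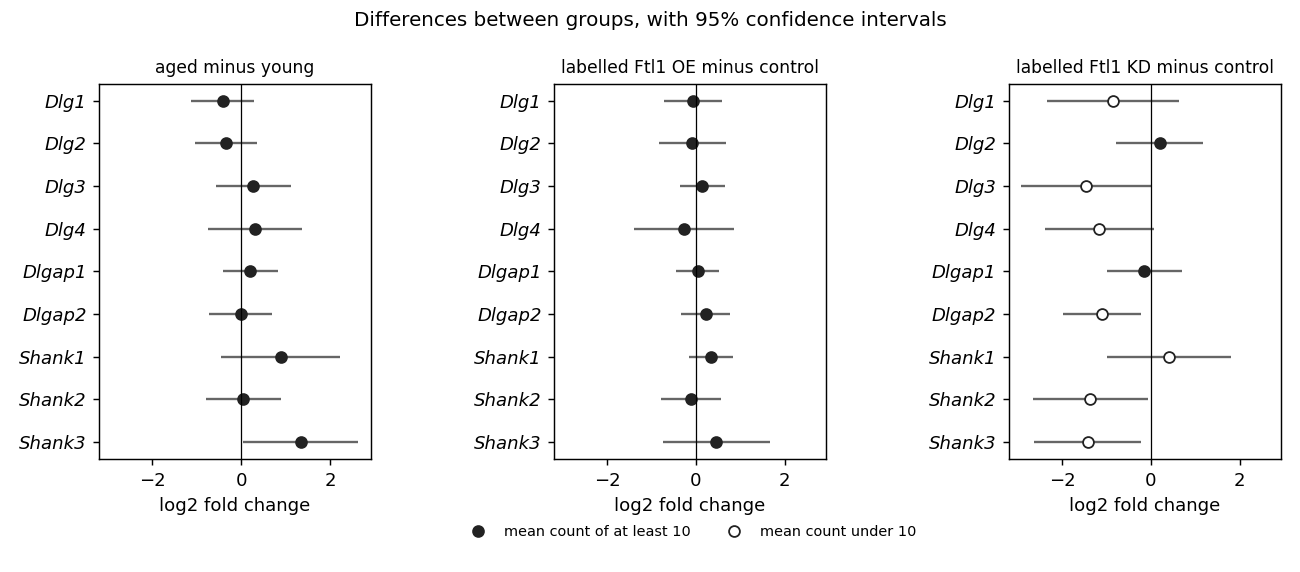
Log2 fold changes of the 9 scaffold genes (points) with their 95% confidence intervals (bars) from limma, for aged minus young, labelled Ftl1 OE minus control and labelled Ftl1 KD minus control, with open points for genes with a mean normalized count under 10. In OE, each interval spans 0, whereas in KD 7 of the 9 points lie below 0 with wide intervals.

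Levels of different genes were compared here after division by exon length, in normalized counts per kb of the merged exons of each gene. The shares and ratios of reads further below were not divided by length. In young wild-type nuclei the highest were Dlgap2 at 202 ± 19.3 per kb (SD, n = 3), Dlgap1 at 178 ± 17.1 and Dlg2 at 177 ± 48.2, whose ranges overlapped. Dlg1 (76.8 ± 21.1), Shank2 (66.0 ± 17.6) and Dlg3 (57.6 ± 16.3) formed the middle of the order and also overlapped. At the low end stood Dlg4 (22.4 ± 11.8), Shank1 (22.2 ± 7.65) and Shank3 (10.2 ± 5.39), each overlapping its neighbour. Neighbours were apart by more than their ranges between Dlg2 and Dlg1 and between Dlg3 and Dlg4, but per kb of the longest coding transcript Dlg4 (up to 73.9) overlapped Dlg3 (from 46.0). Dlg4, the gene for PSD95, was below Dlg1, Dlg2 and Dlg3 per kb in each of the 3 young libraries.

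In the OE controls the order per kb was Dlg3 (255 ± 58.5, SD, n = 5), Dlgap1 (183 ± 69.3), Dlgap2 (139.7 ± 47.0), Shank1 (85.02 ± 17.2), Dlg1 (60.4 ± 28.2), Dlg2 (59.4 ± 37.2), Shank2 (30.5 ± 12.4), Dlg4 (9.80 ± 2.89) and Shank3 (9.09 ± 4.49). Each neighbour overlapped the next except Shank2 and Dlg4, where the lowest Shank2 value of 16.4 was above the highest Dlg4 value of 13.7. Shank3 was last in both orders. Per kb of the longest coding transcript instead of merged exons, Dlgap1 came first in both groups, with 445 in young and 457 in OE control libraries. By that length Dlg4 (up to 28.7) overlapped Shank2 (from 19.7) in the OE controls, and the gap lay between Shank1 and Shank2.

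The genes differ widely in their structure. In the GENCODE M21 annotation (GRCm38, which is mm10), all 9 are on the forward strand. Dlg2 on chr7:90476672-92449247 spans 1973 kb, of which 0.825% is exonic, and Dlgap1 on chr17:69969073-70821413 and Dlgap2 on chr8:14095865-14847680 span 852 and 752 kb. Dlg4, on chr11:70016942-70047522, spans 30.6 kb, 43.3% of it exonic. Dlg1 is on chr16:31663443-31875129 and Dlg3 on chrX:100767722-100818410. Shank1 is on chr7:44310253-44360572, Shank2 on chr7:144001928-144424494 and Shank3 on chr15:89499623-89560261. The longest coding transcripts of Shank3 (62.4%) and Shank1 (61.4%) have the highest GC content, and that of Dlg1 the lowest (43.8%). Exons of Shank1, Shank3 and Dlgap1 overlap those of a gene on the opposite strand. Of these partners only 1700008O03Rik, opposite Shank1, is in the tables, with at most 94.7 normalized counts in any library. The sample records describe strand-specific libraries and the methods a Smart-seq2 protocol, and whether reads of the opposite strand were kept apart was not tested.

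The aging comparison asked which transcripts of hippocampal neurons differ between 3 and 18 months. Shank3 and Shank1 had the biggest differences of the 9 genes. Of the 9, 6 had a higher and 3 a lower mean log2 value in aged nuclei, with a median log2 fold change of 0.21 beside −0.03 over all genes tested. Shank3, whose protein binds Dlgap and Homer proteins, had normalized counts of 148, 81.6 and 51.5 in the young and 286 and 168 in the aged libraries. Both aged libraries were above all young ones. The share of reads from Rn45s, a ribosomal RNA gene, moved the same way, with 2.63% to 4.0% in young and 5.91% to 6.42% in aged libraries, and its part in the Shank3 values was not tested. The log2 fold change of Shank3 was 1.35 (95% CI 0.05 to 2.64), with an unadjusted limma p of 0.0426 and an adjusted p of 0.614. Its exact two-sided permutation p was 0.2, where the smallest p that 3 against 2 libraries allow is 0.1. Shank3 was the only member whose groups did not overlap, and groups did not overlap for 24.7% of all genes tested. The alternatives gave log2 fold changes from 0.97 to 1.74 and adjusted p-values from 0.415 to 0.974.

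Shank1 measured 279, 279.9 and 140.2 in young and 949.8 and 178 in aged libraries. A high value in aged library 2 and an aged library 3 within the young range lay behind its log2 fold change of 0.89 (95% CI −0.45 to 2.22, limma adjusted p = 0.725). Without aged library 2, the log2 fold change of Shank1 was −0.32. Shank2 measured 917, 673 and 543 in young and 1082 and 480.5 in aged libraries, again with an aged library on either side of the young ones (log2 fold change 0.05, 95% CI −0.78 to 0.89).

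**Figure D2:**
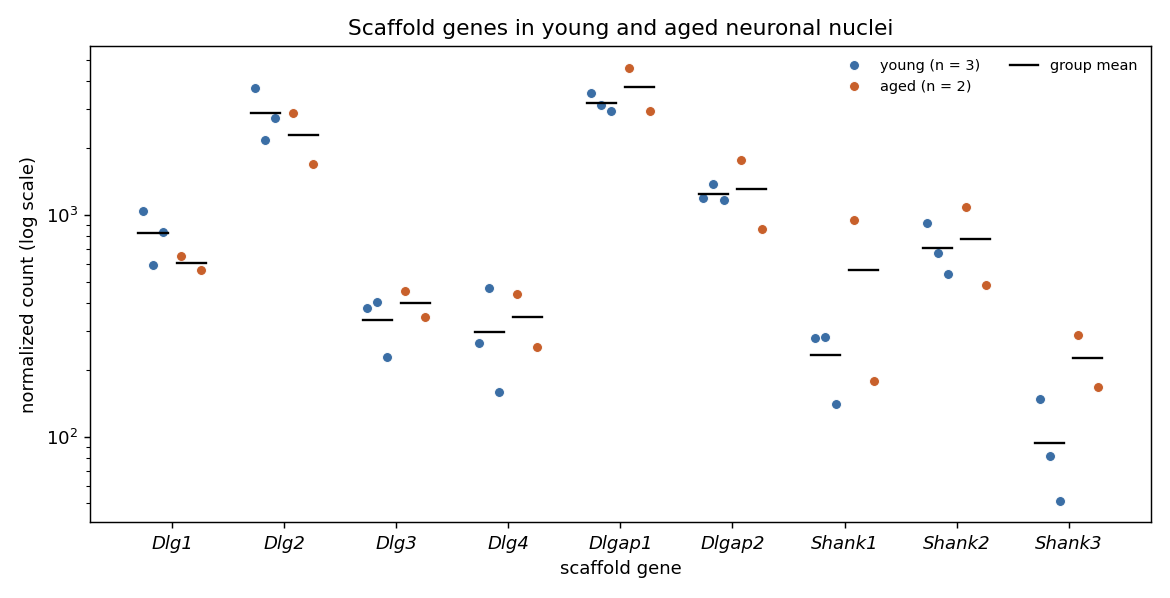
Normalized counts (log axis) of the 9 scaffold genes in the 3 young and 2 aged libraries, each point a library and each line a group mean. Shank3 is the only gene whose aged points (168 and 286) both lie above its young points (51.5 to 148).

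Dlg4 had normalized counts of 263, 468 and 159 in young and 441 and 253 in aged libraries. Its groups overlapped, with a log2 fold change of 0.31 (95% CI −0.75 to 1.36, limma adjusted p = 0.886). Dlg1 (SAP97) measured 1044, 592 and 837 in young and 650.3 and 562 in aged nuclei, with 1 aged value inside the young range and the other below it (log2 fold change −0.41, 95% CI −1.12 to 0.30, limma adjusted p = 0.759). Dlg2 measured 3726, 2179 and 2731 in young and 2871 and 1699.5 in aged libraries (log2 fold change −0.35, 95% CI −1.04 to 0.35). Dlg3 (SAP102) measured 379, 404 and 228 against 453 and 347 (log2 fold change 0.28, 95% CI −0.56 to 1.12). None of the 4 Dlg genes separated the ages.

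The Dlgap genes had the tightest young values. Dlgap1 measured 3529, 3118 and 2933 in young and 4606 and 2936 in aged libraries (log2 fold change 0.21, 95% CI −0.41 to 0.82). Dlgap2 measured 1187, 1379 and 1163 in young libraries. In the aged ones it measured 1756 and 864, on both sides of the young range, and its log2 fold change was −0.01 (95% CI −0.72 to 0.70).

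Aged library 2 was above aged library 3 for all 9 scaffold genes, by a median of 0.76 on the log2 scale, while 49.8% of all genes tested were higher in aged library 2, with a median difference of 0. Summed over the 9 genes, normalized counts were 13094 in aged library 2 and 7489 in aged library 3, either side of the young libraries, which ranged from 8786 to 11473.

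The OE comparison asked what follows from raised neuronal Ftl1 in young mice. No member differed beyond the spread between libraries: 5 genes had a higher and 4 a lower mean in libraries labelled Ftl1 OE, the median log2 fold change was 0.04 beside 0.10 over all genes tested, and the smallest limma adjusted p of a member was 0.724. For no member did the groups fail to overlap, as they did for 0.582% of all genes tested. For 7 of the 9 members the residual SD on the log2 scale was under the median of all genes, 0.69, with a range of 0.37 (Shank1) to 0.84 (Shank3).

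Dlg4 had normalized counts of 97.2, 127, 90.6, 182 and 153 in the controls and a range of 23.8 to 199.6 with a median of 125 in the 7 libraries labelled Ftl1 OE. Library 9918 alone was at 23.8, and the next lowest of its group was at 87.7. The log2 fold change was −0.26 (95% CI −1.39 to 0.86, limma adjusted p = 0.900) and 0.08 without library 9918. Its exact two-sided permutation p was 0.703.

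Dlg3 had normalized counts of 1679, 1912, 1177, 1570.4 and 1103 in the controls against 883 to 2504, with a median of 1647, in libraries labelled Ftl1 OE (log2 fold change 0.15, 95% CI −0.37 to 0.66). Dlg1 measured 579, 1156, 337, 577 and 595 in controls against 307 to 865, with a median of 557 (log2 fold change −0.06, 95% CI −0.72 to 0.60). Dlg2 measured 913, 1959.5, 341, 673 and 949 in controls against 577 to 1333, with a median of 727 (log2 fold change −0.08, 95% CI −0.83 to 0.67). For both Dlg1 and Dlg2 the control library 9904 was the highest and 9905 the lowest of its group.

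Dlgap1 was close between the groups: 3220.5, 5166, 3159, 3158 and 1678 in controls and 2694 to 3753, with a median of 3159, in libraries labelled Ftl1 OE. Its log2 fold change was 0.04 (95% CI −0.44 to 0.51), the narrowest interval of the 9 in OE. Dlgap2 measured 499.6, 1074, 798, 702 and 1219.9 in controls against 682 to 1453, with a median of 1001 (log2 fold change 0.22, 95% CI −0.33 to 0.76).

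Shank1 measured 701, 703, 1075, 1037 and 953 in controls against 691 to 1719.8, with a median of 1208, and 6 of the 7 libraries labelled Ftl1 OE were above the control median. Its log2 fold change of 0.34 (95% CI −0.15 to 0.82) had the smallest exact two-sided permutation p of the 9 members in OE, 0.143, and a limma adjusted p of 0.724. Shank2 measured 177, 499, 254, 278 and 434 against 203 to 357, with a median of 299 (log2 fold change −0.12, 95% CI −0.79 to 0.55). Shank3 measured 86.5, 55.3, 35.2, 142 and 98.6 against 50.9 to 289.7, with a median of 90.1 (log2 fold change 0.45, 95% CI −0.75 to 1.66).

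**Figure D3:**
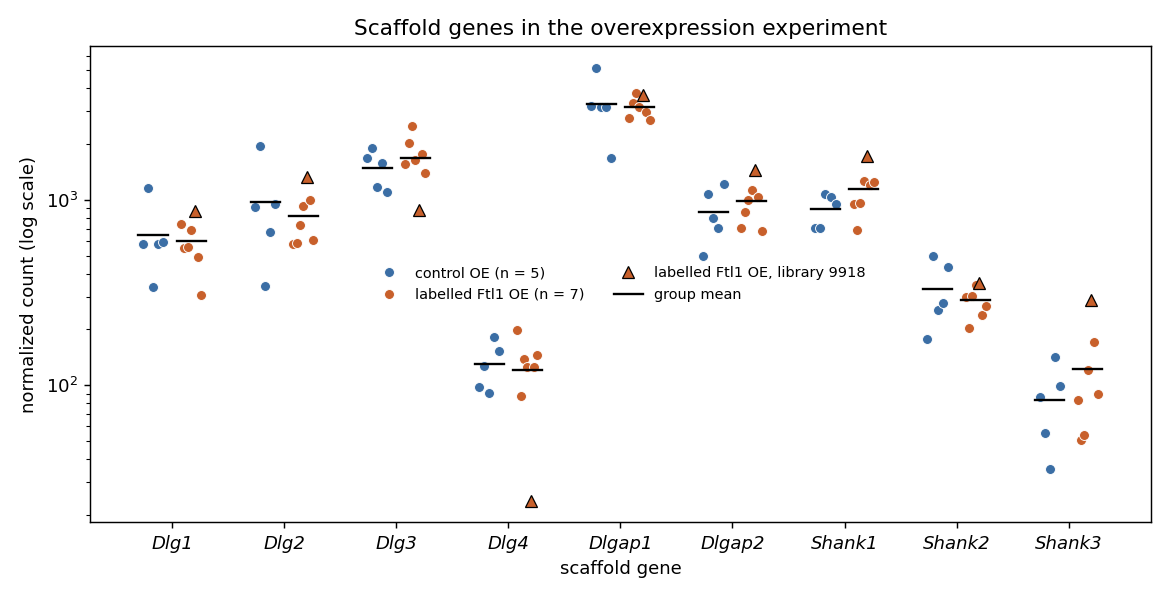
Normalized counts (log axis) of the 9 scaffold genes in 5 control and 7 libraries labelled Ftl1 OE, each point a library and each line a group mean, with library 9918 drawn as a triangle. The groups overlap for all 9 genes, and library 9918 is lowest for Dlg4 (23.8) and Dlg3 (883) and highest for Shank1 (1719.8) and Shank3 (289.7).

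Library 9918 was the highest of the 12 OE libraries for Dlgap2, Shank1 and Shank3 and the lowest for Dlg3 and Dlg4, and control library 9904 was the highest for Dlg1, Dlg2, Dlgap1 and Shank2. Over all genes tested, library 9918 was the highest for 14.2% and the lowest for 10.99%, and library 9904 for 17.3% and 16.2%.

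Across the 12 OE libraries the 9 genes did not rise and fall as a unit. The 36 pairwise Pearson correlations of log2 values ranged from −0.60 to 0.77 with a median of 0.07, and 22 were positive. As a description, the genes with the pattern most like that of Dlg4 over the 12 libraries, among 14098 others, were Tle4 (r = 0.945), Pald1 (r = 0.941) and Xrcc3 (r = 0.926). Those most like Dlg2 were Kcnq1ot1 (r = 0.958), a nuclear noncoding RNA, Tnrc6b (r = 0.950) and E330033B04Rik (r = 0.948). These points share their library and its size factor. Dlg4 was far lower in library 9918 (23.8 normalized counts) than in any other, and its correlations without that library were not computed.

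The KD comparison asked what follows from lowering Ftl1 in aged mice. Means were lower in libraries labelled Ftl1 KD for 7 of the 9 genes and higher for Dlg2 and Shank1, in a fit over every gene with a read, and 55.8% of the 13393 genes of that fit were lower. The median log2 fold change of the 9 was −1.09 beside −0.12 over all genes of the fit. Setting Shank3 to the bound given below could not change this median, as Shank3 already lay below it. limma called 0 of the 9 in that fit, which called 2.49% of its genes. All 9 genes together received 28 to 171 reads in a control library and 19 to 42 in a library labelled Ftl1 KD, so that only large differences could be seen at this depth.

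Dlgap2 came nearest to a call. It had normalized counts of 12.3, 9.68, 18.7 and 14.6 in the controls (10 to 35 reads), whereas the 4 libraries labelled Ftl1 KD gave 5.75, 4.51, 7.29 and 5.88 (4 to 6 reads). The groups did not overlap, as for 6.9% of all genes with a read. The median gene of that set had a mean of only 1.83, so this share does not describe genes at the level of Dlgap2. Of the genes with a mean of at least 10, limma called 24.2%, and their share without overlap was not computed. The exact two-sided permutation p of Dlgap2 was 0.0286, the smallest that 4 against 4 libraries allow and 1 of 27 such unadjusted tests. Its log2 fold change was −1.09 (95% CI −1.97 to −0.21), with a limma adjusted p of 0.22. Its mean of 9.84 lay just under the limit of 10, and with a limit of 5, chosen after the data were seen, its adjusted p was 0.072. With all libraries thinned to 48902 total reads, it had 17 reads over the controls against 12 over the other group, and thinned to 32070 reads outside Rn45s it had 24 against 12.

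The structurally related Dlgap1 measured 19.8, 6.86, 11.2 and 17.6 in controls and 8.63, 13.5, 7.29 and 20.6 in libraries labelled Ftl1 KD. These values overlapped (log2 fold change −0.14, 95% CI −0.98 to 0.70, limma adjusted p = 0.823), and with all libraries thinned to equal total reads the log2 fold change turned to 0.93 (limma adjusted p = 0.259). Rn45s took 31.9% to 55.3% of the control reads and 30.3% to 34.5% of those in libraries labelled Ftl1 KD, so that equal totals left fewer reads of other genes in the controls. Each thinning was a single random draw, and the part of the draw or of Rn45s in the turn of Dlgap1 was not tested. Thinned to equal reads outside Rn45s (added once the values were known), the log2 fold change of Dlgap1 was −0.51 (limma adjusted p = 0.517). The difference between both Dlgap genes was not tested.

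Dlg4 measured 10.4, 2.42, 7.49 and 3.76 in controls (4 to 11 reads) and 1.92, 0.902, 3.64 and 1.47 in libraries labelled Ftl1 KD (1 or 2 reads each). All 4 of the latter were below the control median, with overlap of the groups. Its log2 fold change was −1.16 (95% CI −2.39 to 0.07, limma adjusted p = 0.405, exact two-sided permutation p = 0.0571). Dlg3 measured 1.89, 1.61, 3.74 and 3.34 in controls, whereas 3 of the 4 libraries labelled Ftl1 KD were at 0 and the other at 1.80, from 2 reads. Its log2 fold change was −1.45 (95% CI −2.91 to 0.02). Dlg2, with the most reads of the Dlg genes, measured 10.4, 6.05, 5.62 and 15.9 in controls and 6.71, 14.4, 7.29 and 14.7 in libraries labelled Ftl1 KD (log2 fold change 0.20, 95% CI −0.79 to 1.18). Dlg1 measured 5.66, 3.23, 0 and 2.51 against 3.84, 0.902, 0 and 0 (log2 fold change −0.86, 95% CI −2.34 to 0.63).

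Shank3 had 0, 12, 1 and 5 reads in the controls and 0 in all 4 libraries labelled Ftl1 KD. Against a floor of 3 reads over that group, the 18 control reads gave a bound of 3.14-fold higher controls. This bound takes in counting error for the group at 0 only, with the control reads taken as measured. Without control library 2, which held 12 of these reads, the bound was 1.70-fold. After thinning to equal total reads no Shank3 read was left in any library, and after thinning to equal reads outside Rn45s 4 were left, all in controls. Shank2 measured 3.78, 4.44, 3.74 and 10.03 in controls and 0.959, 0.902, 7.29 and 0 in libraries labelled Ftl1 KD (log2 fold change −1.36, 95% CI −2.66 to −0.07, exact two-sided permutation p = 0.114). Shank1 measured 5.66, 2.02, 0 and 1.67 against 4.79, 0.902, 1.82 and 4.41 (log2 fold change 0.41, 95% CI −0.99 to 1.81).

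**Figure D4:**
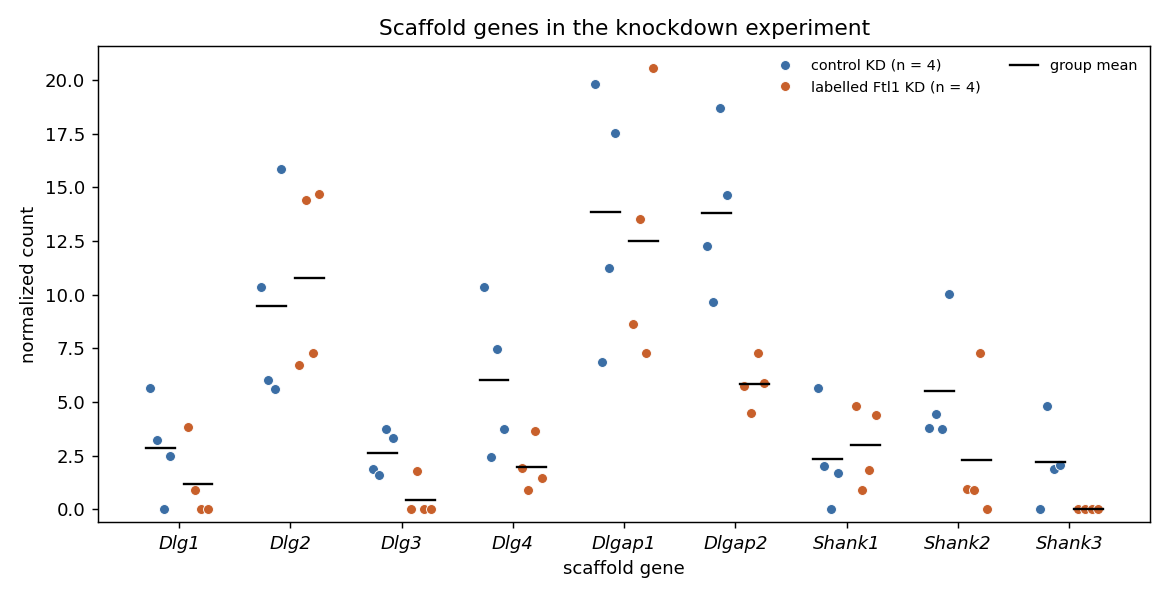
Normalized counts of the 9 scaffold genes in 4 control and 4 libraries labelled Ftl1 KD, each point a library and each line a group mean, on a linear axis. Dlgap2 is the only gene without overlap (9.68 to 18.7 against 4.51 to 7.29), and Shank3 is at 0 in all 4 libraries labelled Ftl1 KD.

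Other features moved with the KD groups. Nuclear-retained noncoding RNA fell in libraries labelled Ftl1 KD for all 5 tested of a list of 6, beside 24.2% of all genes called, Malat1 from a range of 249.7 to 572 to a range of 77.9 to 143 and Meg3 from 116 to 273 down to 48.5 to 63.3 (limma adjusted p = 5.47e-06 and 8.68e-05). Of the 5, the call of Kcnq1ot1 (adjusted p = 0.0359) held in only 16 of 28 alternatives and was lost with the replicate block (adjusted p = 0.0661) and without any 1 of the 4 control libraries or labelled Ftl1 KD library 5. The share of reads from Rn45s was higher in 3 of the 4 controls than in any library labelled Ftl1 KD, within the ranges given above. The 6 oligodendrocyte markers summed to between 36.8 and 93.6 in controls and between 10.9 and 21.6 in libraries labelled Ftl1 KD. Astrocyte markers summed to between 22.5 and 53.8 against 46.0 to 67.6, and neuronal markers to between 169 and 222 against 197 to 216. Controls held between 68092 and 358560 reads, and libraries labelled Ftl1 KD between 48902 and 97104. The part of any of these in the values of Dlgap2, Dlg3, Dlg4, Shank2 and Shank3 was not tested.

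The make-up of the Dlg family within a library does not depend on how a table was scaled, and was compared across tables after the values had been seen, without a test. It was taken in reads that were not divided by exon length. The merged exons measure 16.28 kb for Dlg2 and 5.84 kb for Dlg3, so shares within a library are not levels per kb. Dlg2 held 59.8% to 69.1% of the Dlg1 to Dlg4 reads in young and 59.4% to 65.0% in aged libraries. Dlg3 held 5.77% to 11.1% in young and 10.3% to 12.1% in aged libraries. In the OE table the order turned, with 37.1% to 60.5% for Dlg3 and 17.5% to 38.0% for Dlg2 in controls. Libraries labelled Ftl1 OE had 28.4% to 63.8% Dlg3 and 17.9% to 42.9% Dlg2.

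Reads of Dlg3 per read of Dlg2 were 0.0835 to 0.185 in young, 0.158 to 0.204 in aged, 0.976 to 3.45 in OE control and 0.663 to 3.49 in labelled Ftl1 OE libraries. KD controls, with few reads, had 0.182 to 0.667. The Shank family was also composed differently: Shank1 reads per Shank2 read were 0.258 to 0.878 in the aging and 1.41 to 5.06 in the OE libraries. Both wild-type young mice and OE controls are young, and the experiment, the injection and the library preparation cannot be told apart between the tables.

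**Figure D5:**
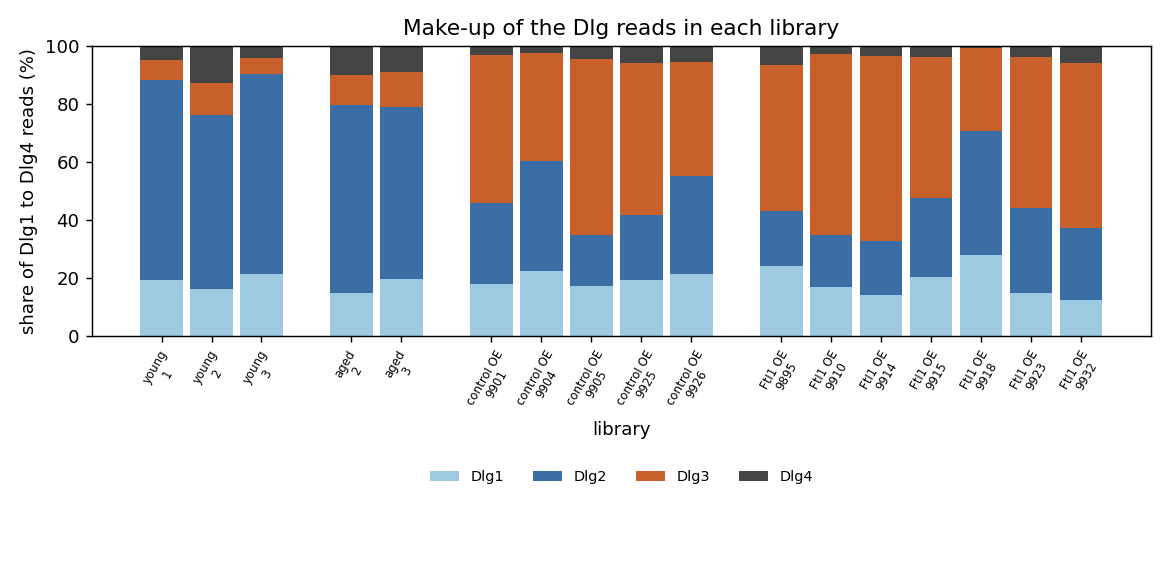
Share (%) of the Dlg1, Dlg2, Dlg3 and Dlg4 reads of each library held by each gene, as stacked bars for the aging and OE libraries. Reads were not divided by exon length. Dlg2 holds the greater part in the 5 aging libraries, at 59.4% to 69.1%, and Dlg3 exceeds Dlg2 in reads in 10 of the 12 OE libraries.

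The other postsynaptic scaffolds and partners, a list of 32 genes such as the Homer, Magi and Lin7 families, also held no call in aging or OE: limma called 0 of 32 in each, as of all genes tested. At an unadjusted p of 0.05 or less there were 3 of 32 in aging beside 7.94% of all genes and 2 of 32 in OE beside 7.26%. The median log2 fold change of the list was 0.10 in both. In aging the biggest differences were those of Agap2, a GTPase-activating protein (99.4 to 168 in young, 219 to 586 in aged libraries, log2 fold change 1.45, limma adjusted p = 0.534), Lin7c, a PDZ adaptor that pairs with Cask (321 to 392 against 117 to 149, −1.39, adjusted p = 0.461), and Akap5, which anchors protein kinase A (450.1 to 536 against 205 to 312, −0.91, adjusted p = 0.581). The groups of these 3 genes, picked for their size of difference, did not overlap, as for 24.7% of all genes tested, and none passed the threshold. In OE they were Dynll2 (log2 fold change −0.53, limma adjusted p = 0.679), Akap5 (0.51, adjusted p = 0.831) and Agap2 (−0.50, adjusted p = 0.758).

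In KD only 6 of the 32 could be tested, and limma called 3 of them, all lower in libraries labelled Ftl1 KD, beside 24.2% of all genes tested. Kalrn, a guanine nucleotide exchange factor of dendritic spines, fell from a range of 16.9 to 43.1 to a range of 5.47 to 10.8 (log2 fold change −1.67, adjusted p = 0.00183). Sipa1l1, a Rap GTPase-activating protein that binds the Dlg proteins, fell from 19.8 to 24.5 down to 3.64 to 15.3 (−1.56, adjusted p = 0.00612). Cttnbp2, a cortactin-binding protein of spines, fell by 1.20 on the log2 scale with overlapping groups (adjusted p = 0.0322), and this call held in only 10 of 28 alternatives, and was lost when control library 1, 3 or 5 or labelled Ftl1 KD library 3 or 5 was left out. Thinned to equal total reads, Sipa1l1 had a log2 fold change of −1.32 (adjusted p = 0.119) and Kalrn of −1.38 (adjusted p = 0.046). Thinned to equal reads outside Rn45s, they had −1.63 (adjusted p = 0.0347) and −1.35 (adjusted p = 0.0719). The replicate block ended the call of Sipa1l1 (log2 fold change −1.37, adjusted p = 0.0575) and not those of Kalrn and Cttnbp2. The inhibitory scaffold gene Gphn (gephyrin) was not called in aging or OE, with log2 fold changes of −0.20 and −0.44, and could not be tested in KD.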

How the data were processed

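RNA of sorted NeuN-positive hippocampal nuclei was sequenced in 3 experiments. According to the methods, the authors aligned reads with STAR to the mm10 transcriptome, quantified genes with RSEM and normalized with DESeq2. The deposited tables hold, for each gene and library, a normalized count (a signal: reads divided by the library's size factor), beside the authors' own fold changes and p-values, which were not used. Each table was normalized separately. Values were whole multiples of a library-specific step, which returned whole reads for 100% of genes (tolerance 0.02).

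Groups were compared with limma 3.58.1 (R 4.3.3) on log2(normalized count + 1), with a variance trend, over genes with a mean of at least 10, with Benjamini-Hochberg adjustment over all genes tested. A call required an adjusted p of 0.05 or less and, for aging, a log2 fold change of 0.5 or more in size. A log2 fold change on this scale understates the change of low genes. Values of KD members with a lower mean came from a fit over every gene with a read. Exact two-sided permutation tests used the mean log2 values, over 27 tests without adjustment. Nothing in the records says how animals relate beyond the labels, so p-values measure the spread between libraries. No library was a copy of another of its group: the lowest chi-square per degree of freedom between a pair was 1.55. Models were checked on simulated data. Alternatives were edgeR 4.0.16 and DESeq2 1.42.0 on recovered reads, other pseudocounts (0.5 and 4), filters and scalings, thinning, a replicate block and leaving out each library. Fits over every gene with a read by other settings, a mean of at least 5 and thinning without Rn45s were added after the data were seen. Lengths and positions came from GENCODE M21. Depths limit counting precision, and the floor of 3 reads covers counting error of the group at 0 only.

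The members and lists were chosen with earlier results of these data known. Named were all 9 members, of the partner list the genes called and the 3 with the largest absolute log2 fold change in each comparison, and the 3 genes most correlated with Dlg4 and with Dlg2. Proteomics and single-nuclei data were not analysed here.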

Additional observations from a re-analysis of the deposited data

Results flagged for a closer look

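Over 36 sets of values (9 genes in the groups of 4 to 7 libraries), 3 held a library far from the others of its group on the log2 scale. Chance alone gives about 1 in 20 for continuous values, a rate that need not hold for the low KD counts. Dlg4 was at 23.8 normalized counts in library 9918 labelled Ftl1 OE, with the next lowest of the 7 libraries at 87.7. Shank2 was at 10.03 in KD control library 5, with the next highest control at 4.44. Dlg3 was at 1.80 in library 3 labelled Ftl1 KD, from 2 reads, with the other 3 libraries of its group at 0. With those at 0, any read in library 3 would have been flagged.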

How the results depend on the processing

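The number of members called was 0 in aging, OE and KD under all 15, 20 and 28 alternatives run, leaving out each library and the replicate block included. In KD, the alternatives over genes with a mean of at least 10 could test only Dlg2 and Dlgap1 of the members. Over every gene with a read, the thinned fits and the replicate block called 0 of 13393 genes. A KD limit of a mean of 100 left no member to test. Over the 27 member log2 fold changes, 464 alternative values were computed; 437 kept their direction or were 0, 27 turned it, and 13 of the 27 results never turned. The cause of the turns was not tested, beyond the left-out library where that is the setting.

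In aging, Dlgap2 turned to 0.067 with edgeR and 0.076 with DESeq2. In OE, Dlgap1 turned to −0.059 with median centring, −0.012 with edgeR and −0.040 with DESeq2. In KD, thinning to equal total reads gave −0.096 for Dlg2 and 0.93 for Dlgap1, while thinning to equal reads outside Rn45s turned no member.

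Leaving out 1 library in turn, log2 fold changes in aging ranged from −0.72 to 0.031 for Dlg2, −0.093 to 0.71 for Dlg4, −0.12 to 0.53 for Dlgap1, −0.52 to 0.50 for Dlgap2, −0.32 to 2.09 for Shank1 and −0.53 to 0.64 for Shank2, the ends set by aged library 2 or 3. In OE they ranged from −0.27 to 0.17 for Dlg1, −0.40 to 0.23 for Dlg2, −0.42 to 0.082 for Dlg4, −0.18 to 0.22 for Dlgap1 and −0.31 to 0.058 for Shank2. In KD they ranged from −0.42 to 0.058 for Dlgap1 and −0.067 to 0.84 for Shank1.

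Median centring moved the median of all genes from 0.10 to 0 in OE (TMM 0.15) and from −0.01 to 0.10 in KD. Deviations of same-numbered libraries correlated at −0.05 and 0.02 in aging and between −0.05 and −0.02 in KD. The deviations of the 2 aged libraries mirror each other, so the aging values say little. Whether replicate numbers mark paired libraries was therefore not settled. With the replicate block, KD calls over all genes fell from 354 to 173 (80 higher, 93 lower), and neither of the 2 members tested was called. DESeq2 called 138 genes in aging and 101 in OE, where limma and edgeR called 0.

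Per kb of the longest coding transcript, levels moved beyond 1 SD for 5 genes in each group: to 134 (Dlg1), 368 (Dlg2), 46.9 (Dlg4), 445 (Dlgap1) and 276 (Dlgap2) in young and 106, 124, 20.53, 457 and 190.7 in OE control libraries. Depth limits the KD values most, with at most 42 reads over the 9 genes in a library labelled Ftl1 KD.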
